A study of Mus musculus with 5 samples.

Results

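The class III receptor tyrosine kinases were followed on 1-colour arrays of mouse bone marrow cells labelled as dendritic cell progenitors. Of 12422 non-control probe sets, 9 carried the symbol of 1 of the 5 family genes Flt3, Kit, Csf1r, Pdgfra and Pdgfrb in the platform annotation, and all 9 are described. The whole array held 8251 named genes. Total RNA of 5 samples was measured, numbered 1 to 5, with 1 array each, and all fall in 1 group. The labels give these cells as carrying FLT3, the product of Flt3, and CD11b, the integrin chain encoded by Itgam. They give no strain, genotype, age, treatment or control, and do not say whether animals were pooled or cells were cultured. The data therefore answer where the signal of each of the 5 receptor genes lay within each array and how far the samples differed.

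Receptors of this class are single-pass membrane proteins with immunoglobulin-like domains outside the cell and a kinase domain split by an insert inside it. A dimeric ligand joins a pair of receptor chains, which then phosphorylate each other and recruit adaptors, phosphatidylinositol 3-kinase and STAT factors. FLT3 supports early lymphoid and dendritic cell progenitors, KIT stem cells, early progenitors and mast cells, and CSF1R monocytes, macrophages and their precursors. The PDGF receptors PDGFRA and PDGFRB are known mainly from fibroblasts, pericytes and other mesenchymal cells. The genes lie in clusters, with Pdgfra next to Kit and Kit next to the VEGF receptor gene Kdr on chromosome 5. Csf1r lies next to Pdgfrb on chromosome 18, and Flt3 is separated from Flt1 by 1 coding gene, Pan3, on chromosome 5 (mouse RefSeq, GRCm38.p6).

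Deposited values were linear intensities. Sample 1 had a higher column median, 392 against 66.5 to 81.3 in samples 2 to 5, so all arrays were brought to 1 common median, 103.4. In the absence of detection calls, the array median served as a limit, which gives a position within the array and says nothing of whether a transcript was detected. Because probe sets differ in affinity, signals are compared between samples and not between genes. The actin control gave a 3' over 5' ratio, a measure of RNA integrity, of 1.08, 3.0029, 4.15, 5.20 and 2.55 in samples 1 to 5. That of the transferrin receptor control was 3.14, 3.77, 16.7, 8.63 and 5.16. Nothing in the labels says that the samples came from separate animals or cultures, so the spread between them may be technical.

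Flt3, the gene of the sort, had signal above the array median on all 5 arrays with both of its probe sets. Probe set 95295_s_at had 571, 1212, 353, 1268 and 318 in samples 1 to 5, with a mean of 745 ± 463 (SD, n = 5). Samples 2 and 4 were high, sample 1 lay between, and samples 3 and 5 were low, so that the highest signal was 3.99 times the lowest. Within the arrays it held ranks 1775, 831, 2799, 902 and 2979 of 12422, or percentiles from 76.0 to 93.3. Probe set 95296_r_at had 255, 377, 265, 376 and 345 (324 ± 59.7, SD, n = 5), at percentiles from 70.9 to 77.7. It too was high in samples 2 and 4, but sample 5, the lowest sample of the first probe set, lay close to them, and the highest signal was 1.48 times the lowest. With arrays scaled to a common trimmed mean or quantile normalized, sample 5 was its highest. Only the first probe set therefore showed the wide spread, and the 2 probe sets ordered 6 of 10 sample pairs alike.

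Kit, which encodes the receptor for stem cell factor, was above the array median on all 5 arrays and varied little. Probe set 99956_at had 145, 204, 199, 147 and 222 in samples 1 to 5 (184 ± 35.1, SD, n = 5), at percentiles 57.8, 65.1, 65.7, 57.6 and 68.0. Samples 1 and 4 were the low ones and sample 5 the highest, at 1.53 times the lowest. Sample 4, which had the highest Flt3 signal, thus lay at the lower end for Kit.

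Csf1r, the receptor for M-CSF and IL-34, was measured by 2 probe sets that gave different pictures. Probe set 104354_at had 397, 491, 376, 1000.2 and 225 in samples 1 to 5 (498 ± 297, SD, n = 5), above the median on all arrays at percentiles from 68.2 to 90.6. Sample 4 stood highest and sample 5 lowest, with a ratio of 4.45 between them, and samples 1 to 3 lay together. Probe set 161832_r_at had 170, 181, 76.7, 134 and 117 (136 ± 42.1, SD, n = 5) and was above the median on 4 arrays. Its lowest sample was sample 3, at percentile 43.0, and sample 4 did not stand out.

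Neither PDGF receptor gene was above the median on all arrays. For Pdgfra, probe set 160332_at had 47.8, 78.7, 174, 166 and 145 in samples 1 to 5 (122 ± 56.0, SD, n = 5) and was above the median in samples 3, 4 and 5. Samples 1 and 2 were low on this probe set. The other Pdgfra probe sets were above the median on no array, 95079_at with signals from 24.4 to 65.0 and 161202_r_at with signals from 4.17 to 39.6. Pdgfrb had 1 probe set, 160867_at, with 38.9, 63.4, 23.9, 12.9 and 10.1 (29.9 ± 21.9, SD, n = 5). It was below the median on every array, and below percentile 40 of each, with samples 1 and 2 at the upper end.

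**Figure D1:**
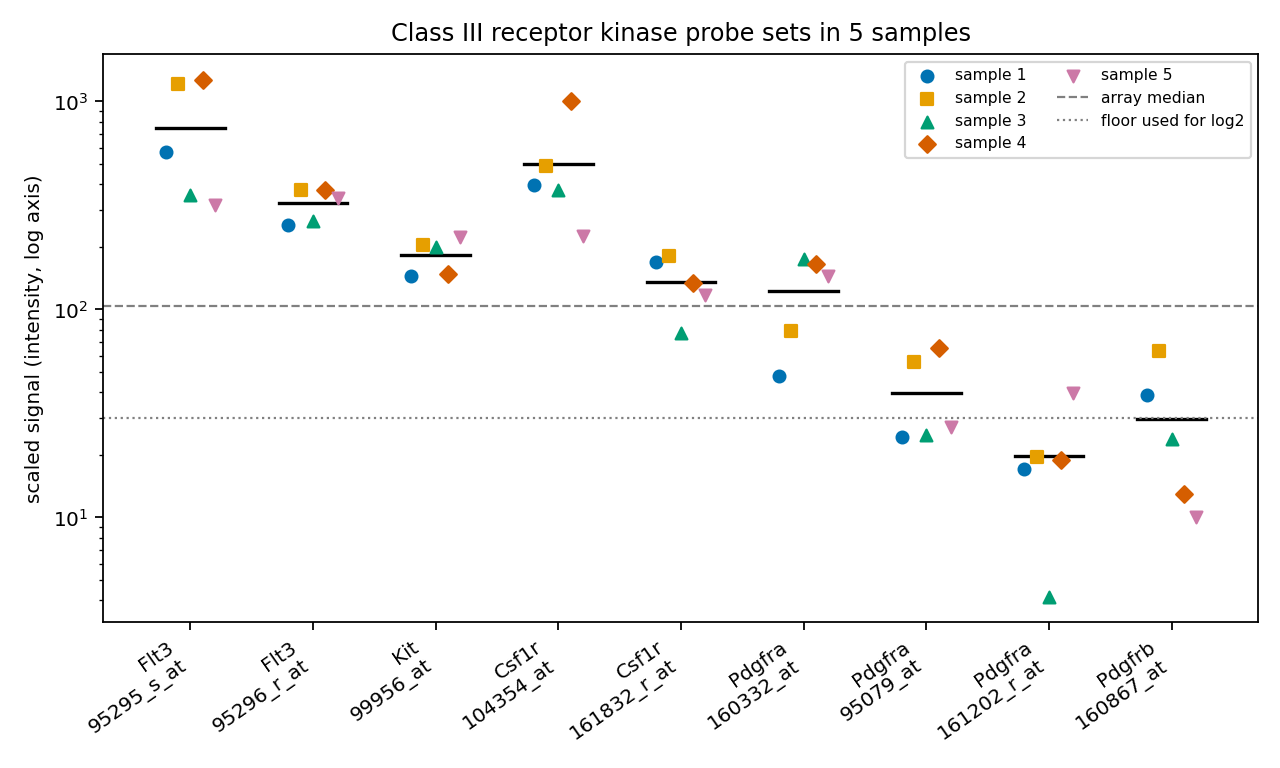
Scaled signal (log axis) of each of the 9 probe sets in samples 1 to 5, with the mean as a bar, the array median of 103.4 as a dashed line and the floor used for log2 values, 30.04, as a dotted line. Both Flt3 probe sets, Kit and Csf1r 104354_at lie above the median in every sample, and the 3 lowest probe sets, of Pdgfra and Pdgfrb, lie below it in every sample.

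Counted together, 4 of 9 probe sets of the family were above the median on all 5 arrays, against 36.7% of all probe sets. By gene, taking the brightest probe set by mean log2 signal, these were Flt3, Kit and Csf1r, 3 of 5, against 44.5% of named genes. With so few members the shares do not set the family apart from the array as a whole. Beyond the members, 3 of 37 measured genes of other receptor tyrosine kinases met the same limit, or 8.11%. They were Igf1r, Ltk and Alk, named after their values were seen, and 22 of the 37 were above the median on no array. Of the first genes of that list, the TAM receptor genes Axl, at 36.0 ± 29.9, and Tyro3, at 24.4 ± 18.2, were above it on no array. The third of them, Mertk, was above it on 3 arrays at 149.7 ± 68.6 and Egfr, the receptor gene for epidermal growth factor, on 2 at 86.2 ± 69.3 (SD, n = 5).

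The spread of each probe set was set against that of others of like signal. The standard deviation of log2 signal over 5 samples was 0.95 for Flt3 95295_s_at, higher than that of 96.6% of the probe sets in its decile of mean signal, and 0.78 for Csf1r 104354_at, higher than 92.8% in its decile. Kit, at 0.29, exceeded 11.9% of its decile, and Flt3 95296_r_at, at 0.28, 15.7%. Limma's variance test was run over the 5814 probe sets whose mean log2 signal exceeded the median, 6 of them from the family. It called 0 of the 6 at an adjusted p of 0.05, against 0% of all probe sets, and 1 of the 6 at an unadjusted p under 0.05, against 4.99%. That 1 was Flt3 95295_s_at, with a limma unadjusted p of 0.0345 and an adjusted p of 0.925. Csf1r 104354_at had a limma unadjusted p of 0.0862 and an adjusted p of 0.931. The spread of the receptor genes between samples thus did not pass the test. The 3 remaining probe sets, of Pdgfra and Pdgfrb, did not reach this filter and were at or under the floor on 3 or 4 of 5 arrays.

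Flt3 and Csf1r, each by its brighter probe set, ordered the samples alike. Flt3 95295_s_at and Csf1r 104354_at both ran in the order 4, 2, 1, 3, 5 from high to low, so that all 10 sample pairs were ordered alike. This was the highest count among the 15 pairs of tested family probe sets. Of the other tested probe sets, 0.998% followed that order. After each profile was centred on its own mean, their root mean square difference was 0.45 log2 units, and 1.19% of other probe sets lay closer to Flt3 and 6.04% closer to Csf1r. The probe sets lay further apart within a gene: the root mean square difference was 0.73 between both of Flt3 and 0.73 between both of Csf1r. Of other probe sets, 23.1% were closer to Flt3 95295_s_at than its own partner, and 85.0% closer to 95296_r_at. For Csf1r these shares were 48.8% for 104354_at and 69.6% for 161832_r_at. The likeness of Flt3 and Csf1r was therefore seen with 1 probe set of each gene. With 95296_r_at in place of 95295_s_at the difference from Csf1r 104354_at was 0.65 and 6 of 10 pairs were ordered alike.

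The profiles shared the same arrays and scaling, which bear on this pattern. When arrays were scaled to a common trimmed mean or quantile normalized, samples 2 and 4 changed places for Flt3, and 9 of 10 pairs were ordered alike. Without sample 2 the difference was 0.25 log2 units, and without each of the other samples it lay between 0.37 and 0.50. In sample 4, probe sets of like signal also lay above their mean, by 0.21 log2 units in the decile of Flt3 and 0.15 in that of Csf1r. Relative to these medians Flt3 95295_s_at stood at 0.90 in sample 2 and 0.80 in sample 4, and Csf1r 104354_at at 0.13 in sample 2 and 1.03 in sample 4. In sample 5 both were low, at -0.86 for Flt3 and -0.85 for Csf1r.

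**Figure D2:**
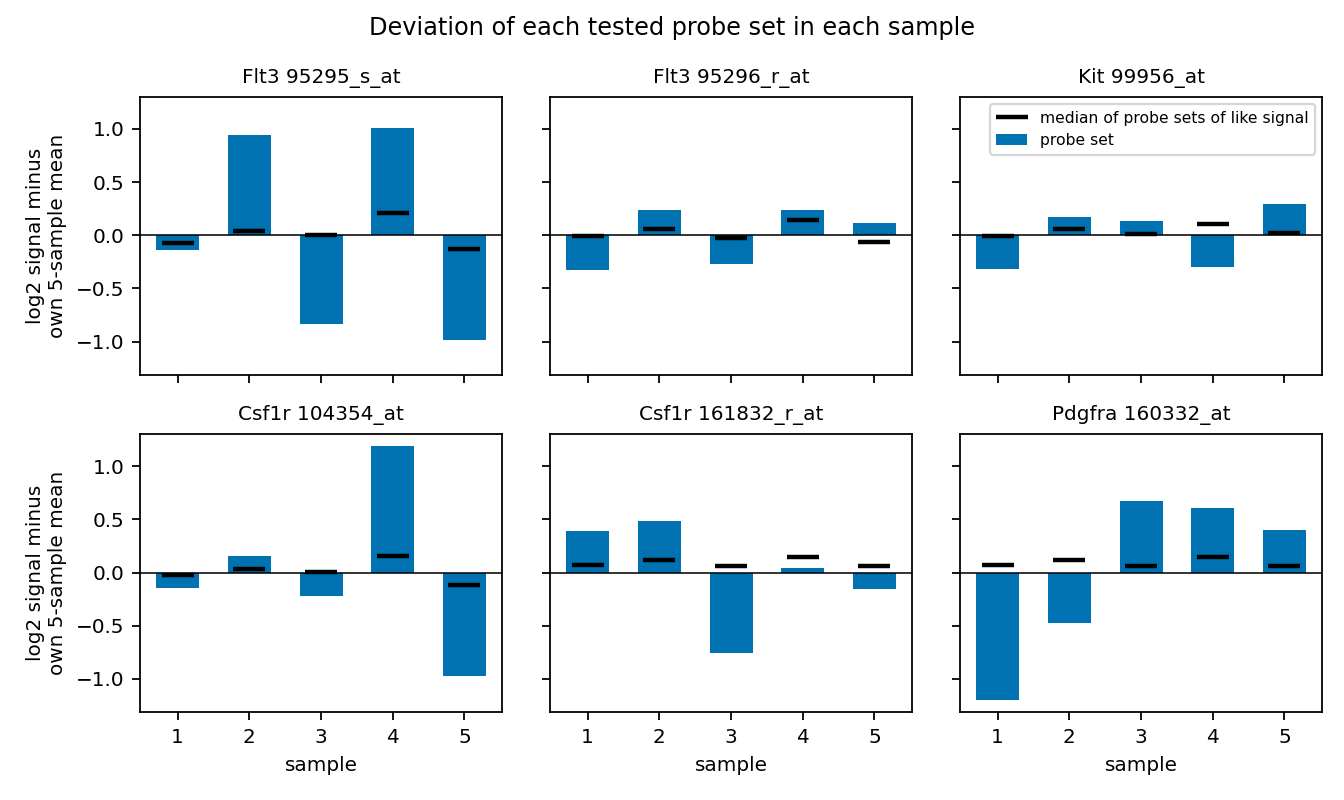
Log2 signal in each sample minus the probe set's own mean over 5 samples (bars), for the 6 probe sets tested for variance, with the median of probe sets in the same signal decile (black marks). Flt3 95295_s_at is raised in samples 2 and 4, Csf1r 104354_at mainly in sample 4, and both are lowered in sample 5, while Kit stays within 0.32 of its mean.

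Kit did not follow this pattern. It ordered 3 of 10 sample pairs like Flt3 95295_s_at and 3 of 10 like Csf1r 104354_at, with root mean square differences of 0.99 and 0.89 log2 units. It lay closest to the other Flt3 probe set, 95296_r_at, with a difference of 0.31 and 7 of 10 pairs ordered alike, both having a small spread. Pdgfra 160332_at differed most from Flt3 95295_s_at, by 1.22, and ordered 5 of 10 pairs like it. Over the 15 pairs of tested family probe sets the median difference was 0.69.

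**Figure D3:**
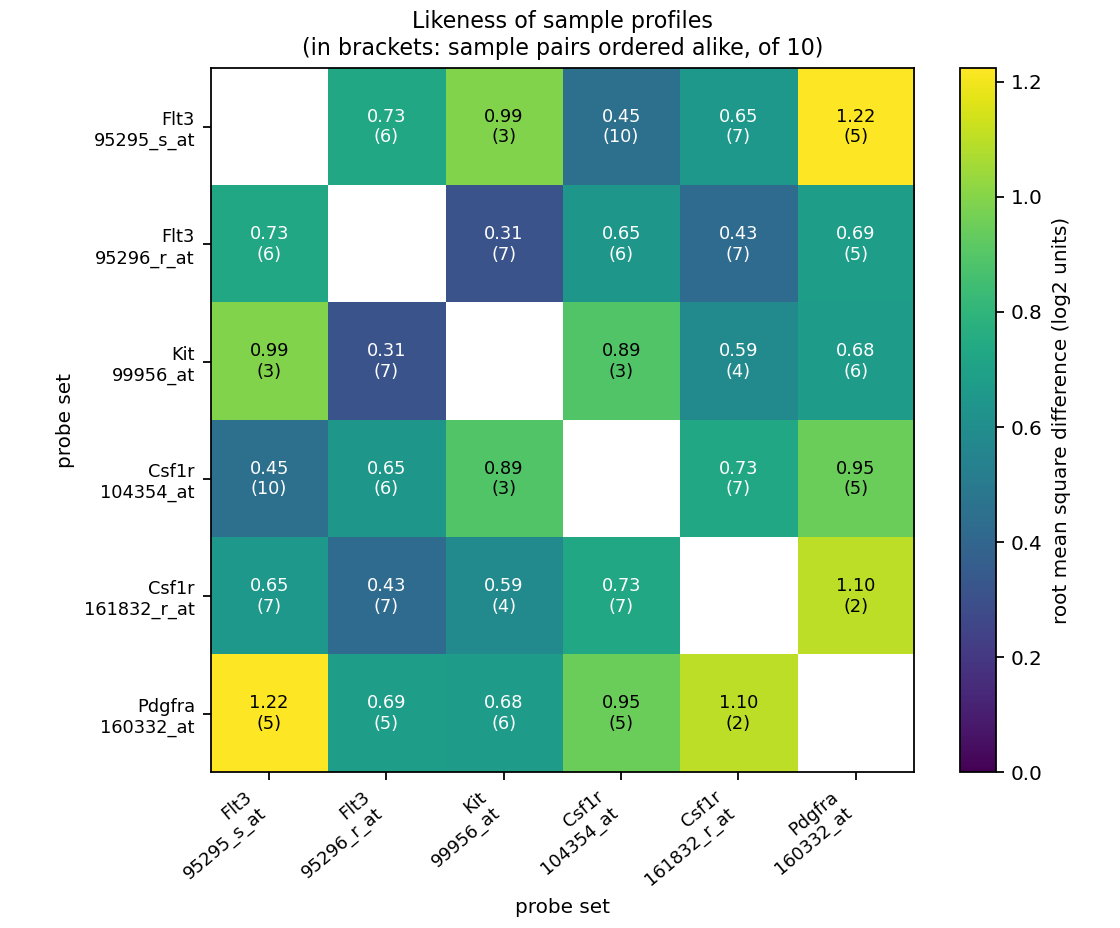
Root mean square difference in log2 units between the centred sample profiles of the 6 tested family probe sets (colour and upper number), with the number of 10 sample pairs ordered alike in brackets. The darkest off-diagonal cells are Kit with Flt3 95296_r_at (0.31), Csf1r 161832_r_at with Flt3 95296_r_at (0.43) and Csf1r 104354_at with Flt3 95295_s_at (0.45).

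The named genes whose profiles lay closest to each receptor were found by the same distance over 5 samples among 4553 genes. Closest to Flt3 95295_s_at were Tmem71 (0.19 log2 units), Pam16 (0.25), C1qb (0.30), Spcs1 (0.30) and Srsf1 (0.32). C1qb encodes a chain of complement C1q made by macrophages, and had 293, 601, 255, 492 and 144 in samples 1 to 5. Its likeness to Flt3, high in samples 2 and 4, is how it was selected. The partner chain genes were less alike, C1qa with 185, 246, 163, 148 and 103, and C1qc with 694, 612, 256, 688 and 315. Each ordered 7 of 10 sample pairs like Flt3 95295_s_at. Closest to Csf1r 104354_at were Dio2 (0.20), Ubac1 (0.20), Cd300c2 (0.21), Fgfr3 (0.21) and Rnf19b (0.22). Cd300c2, a receptor of the CD300 family of myeloid cells, had 509, 805, 555, 1187 and 389. It was highest in sample 4 and lowest in sample 5, a likeness to Csf1r by which it was selected. Closest to Kit were Ncoa3 (0.085), Tmem222 (0.090), Dpm2 (0.097), Egln2 (0.11) and Terf2ip (0.11), whose smaller distances go with the small spread of Kit. For Flt3 95296_r_at the nearest were Klc1 (0.060), Tsc22d1 (0.070), Gosr2 (0.074), Fnta (0.075) and Rps18 (0.076), for Csf1r 161832_r_at Ift88 (0.081), Ltk (0.11), Tmsb10 (0.12), Anxa6 (0.12) and Atf4 (0.12). For Pdgfra 160332_at they were Cldnd1 (0.20), Ptpn2 (0.22), Dynll2 (0.22), Fbxl5 (0.22) and Sp1 (0.24). The lists shared 0 genes for every pair of these probe sets, also for Flt3 95295_s_at with Csf1r 104354_at. Lists of 5 out of 4553 genes are too short to compare the probe sets by.

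The stretches in front of the annotated starts are shown for Flt3 and Kit, the sort gene and the receptor that did not follow it, from RefSeq (GRCm38.p6). The 250 bases before the start of Flt3 lie at chr5:147400490-147400739 on the minus strand, and those of the first of 2 annotated starts of Kit at chr5:75574737-75574986 on the plus strand. Capitals mark matches on either strand to GAGGAA for ETS factors such as PU.1, to TGTGGT for RUNX factors, to AGATAA for factors of the GATA family, to TGACAG for MEIS factors, to CANNTG for the E-box or to TATAAA for the promoter element of that name, with no overlap between matches.
Flt3: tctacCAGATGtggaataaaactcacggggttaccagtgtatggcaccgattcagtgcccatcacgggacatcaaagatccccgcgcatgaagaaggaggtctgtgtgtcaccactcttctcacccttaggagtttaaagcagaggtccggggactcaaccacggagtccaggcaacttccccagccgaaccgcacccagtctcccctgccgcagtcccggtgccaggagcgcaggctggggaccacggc
Kit: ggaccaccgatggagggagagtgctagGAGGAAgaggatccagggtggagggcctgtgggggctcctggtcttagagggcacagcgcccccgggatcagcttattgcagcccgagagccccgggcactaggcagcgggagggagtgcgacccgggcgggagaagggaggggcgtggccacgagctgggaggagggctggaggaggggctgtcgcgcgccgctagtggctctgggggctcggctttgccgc
Flt3 held 1 E-box match, which 66.2% of the 32851 windows of this length in the table hold, and Kit 1 ETS match, which 23.3% hold. The shares of windows with a match for RUNX, GATA family and MEIS factors and for TATAAA were 14.05%, 9.99%, 15.9% and 12.4%. GC content was 59.2% for Flt3 and 70.8% for Kit, and the median of all windows was 52.4%. These are letter matches in 1 window each, and the arrays do not measure binding.

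Of 5 measured ligand genes of the family, 1 was above the median on all arrays, Csf1. This gene, which encodes M-CSF, had 116, 372, 267, 429 and 118 in samples 1 to 5 (260.3 ± 143, SD, n = 5). It was highest in samples 4 and 2, and ordered 8 of 10 sample pairs like Csf1r 104354_at, the brighter probe set of its receptor gene. Csf1 also ordered 8 of 10 like Flt3 95295_s_at, so this likeness was not particular to its receptor gene. The other Csf1r probe set, 161832_r_at, ran in the order 2, 1, 4, 5, 3 from high to low, whereas Csf1 was lowest in sample 1. Flt3l, the FLT3 ligand gene, had 26.7, 29.0, 9.95, 28.8 and 24.6, and the stem cell factor gene Kitl had 45.2, 2.28, 25.6, 35.3 and 5.73. Both lay below the median on every array. Pdgfa, a PDGF chain, had 150.0, 163, 92.3, 118 and 15.4 and was above the median on 3 arrays, while Pdgfb had 189.7, 43.5, 85.8, 28.9 and 54.1 and was above it in sample 1 alone.

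Of the VEGF receptor genes, the nearest relatives of the family and partly its neighbours on the chromosome, 0 of 3 were above the median on all arrays. Flt1 was above it on 1 array with signals from 28.9 to 121, Kdr on 1 with 27.9 to 155 and Flt4 on 2 with 31.4 to 124. Flt1, separated from Flt3 by Pan3, was highest in sample 4 with 121 and had 65.0 in sample 2. Itgam, the other gene of the sort, had 789, 546, 223, 343 and 486 in samples 1 to 5 (477 ± 215, SD, n = 5). It was above the median on all arrays, but it was highest in sample 1 and ordered 5 of 10 sample pairs like Flt3 95295_s_at, so both sort genes did not vary together.

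**Figure D4:**
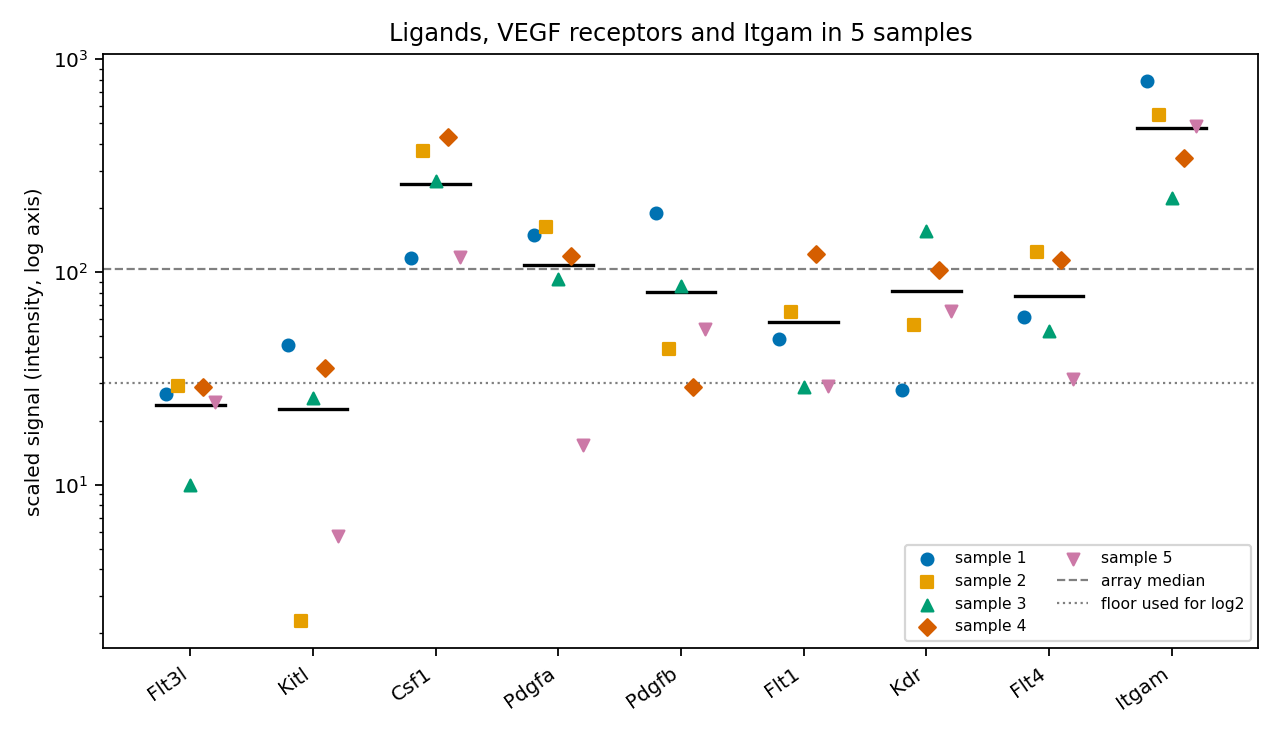
Scaled signal (log axis) of the 5 measured ligand genes, the 3 VEGF receptor genes and Itgam in samples 1 to 5, with means as bars, the array median of 103.4 dashed and the floor of 30.04 dotted. Csf1 and Itgam lie above the median in every sample, and Flt3l and Kitl below it in every sample.

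Genes that carry the signal inside the cell were above the median in about the share found over all named genes, 44.5%. Of the proximal signalling list, 16 of 31 were above it on all arrays, with a median percentile of 65.5 against 56.0 over all named genes. Grb2, the adaptor that couples receptors to Ras, had 458, 331, 387, 581 and 1139 in samples 1 to 5, and Shc1, another adaptor, 677, 604, 572, 681 and 441. Sos1, the exchange factor for Ras, was above the median on 3 arrays at 151 ± 103 (SD, n = 5), and Gab1, a docking protein, on none at 46.4 ± 34.8 (SD, n = 5). Of the negative regulators, 10 of 18 were above it on all arrays, with a median percentile of 67.5. Ptpn6, the phosphatase SHP-1, had 1078, 565, 476, 840 and 871, and Ptpn1, a phosphatase of receptor kinases, 2507 to 4522. Sh2b3, which encodes the adaptor LNK that restrains KIT and FLT3 signals, was above the median on 4 arrays at 147 ± 54.3 (SD, n = 5), and Cbl, the ubiquitin ligase of activated receptors, on 2 at 104 ± 87.2 (SD, n = 5).

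Transcription factors known to act on the receptor genes were above the median in 10 of 23 cases, against 44.5% of named genes, with a median percentile of 63.3. Spi1, which encodes PU.1, a factor of the Csf1r promoter, had 1056, 587, 517, 919 and 1473 in samples 1 to 5 and was highest in sample 5, where Csf1r 104354_at was lowest. With the other Csf1r probe set, 161832_r_at, this contrast was not seen: it was lowest in sample 3, at 76.7, as was Spi1. Cebpa, the myeloid factor C/EBP alpha, had 1964, 1975, 1310.1, 2144 and 1029, ordering 10 of 10 sample pairs like Flt3 95295_s_at and Csf1r 104354_at. Its range was 2.08-fold, and its root mean square difference from Flt3 was 0.52 log2 units. This order was not particular to a factor of the receptor genes: 0.998% of other tested probe sets followed it. Among them was the monocyte marker gene Cd14, also at 0.52 from Flt3. For Flt3 the order depended on the scaling too, since its samples 2 and 4 changed places under the other scalings. The order of Cebpa under those scalings was not examined. Cebpb had 3615, 1084, 2318, 1546 and 2509, and Runx1 131, 399, 188, 177 and 151.

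Markers of other cells were measured because the receptors are shared between cell types. Monocyte and macrophage markers were above the median on all arrays in 9 of 16 cases, and their summed signal was 11663, 15812, 11263, 21247 and 10837 in samples 1 to 5. This sum runs in the same sample order as Flt3 95295_s_at and Csf1r 104354_at. It is led by 1 gene, the lysozyme gene Lyz2, with 5731, 8423, 7663, 16251 and 7343, and does not describe the list as a set. The median deviation of its 12 tested genes from their own means was -0.028, 0.49, -0.28, 0.43 and -0.44 log2 units. That median was highest in sample 2, and Lyz2 itself was lowest in sample 1. Adgre1, which encodes F4/80, had 465 ± 60.9, the endotoxin co-receptor gene Cd14 559 ± 151 and Cd68 1107 ± 304 (SD, n = 5). The part of such cells in the receptor signals was not tested, and in RNA of a whole sample fewer cells of a type and less RNA per cell cannot be told apart.

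The neutrophil list had 13 of 14 genes above the median on all arrays, and its summed signal ran from 83338 in sample 1 to 277000.2 in sample 4. The brightest gene, S100a8, had 9540 in sample 1 and 82007 in sample 4, and the sum does not describe the list as a set. The median deviation of its 13 tested genes from their own means was 0.055, -0.26, -0.39, 0.88 and 0.24 log2 units in samples 1 to 5. Among the genes of the list were Mpo at 6085 ± 2070, Elane at 5823 ± 3524, Prtn3 at 3370 ± 1959 and Ctsg at 3618 ± 2816 (SD, n = 5), all of primary granules. Elane, Prtn3 and Ctsg were highest in sample 1 and Mpo in sample 4. Of the mast cell and basophil list, whose cells carry KIT, 3 of 12 genes were above the median on all arrays, and the summed signal ran from 1813 in sample 1 to 4150 in sample 2. Cpa3 had 1238 ± 597 and Mcpt8 553 ± 110 (SD, n = 5), while the IgE receptor genes Ms4a2, at 61.1 ± 17.2, and Fcer1a, at 20.6 ± 10.5, were above it on no array. Of the progenitor list, which includes Kit and Flt3 themselves, 3 of 7 were above it on all arrays, and Cd34 and Cd27 on 3 and 4 arrays.

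Dendritic cell markers were above the median on all arrays in 2 of 15 cases, with summed signals from 1314 to 1737. They were Cd74, the invariant chain gene, at 306 ± 93.6 and Fscn1, an actin-bundling protein gene chosen after its values were seen. Itgax, the gene of CD11c, was above it on 3 arrays at 96.2 ± 52.4, H2-Ab1 on none at 31.3 ± 13.8 and H2-Aa on 1 at 55.8 ± 48.7 (SD, n = 5). The stromal and endothelial list, whose cells carry the PDGF receptors, had 3 of 20 genes above it and summed signals from 1831 to 2512. Of its genes Col1a1 was above the median on 4 arrays at 177 ± 97.2, Col1a2 on all at 522 ± 256, Col3a1 on none at 53.2 ± 19.2 and Col4a1 on 1 at 67.1 ± 42.9 (SD, n = 5). The lymphocyte list had 1 of 11 genes above it, with summed signals from 814 to 1573. That gene was Ighm, an immunoglobulin gene named after its values were seen, at 575 ± 159 (SD, n = 5). The T cell genes Cd3e, Cd3g and Cd2 were above the median on no array and Cd3d on 1. Rag1 was above it on 3 arrays, Cd79a and Cd79b on 2 each, Ebf1 and Klrd1 on 1 each and Cd8b1 on none. The erythroid and megakaryocytic list had 0 of 8, with summed signals from 283 to 883; Hba-a1 and Klf1 were above the median on 3 arrays each, Alas2 and Epor on none. No gene of these lists was listed at 0.

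**Figure D5:**
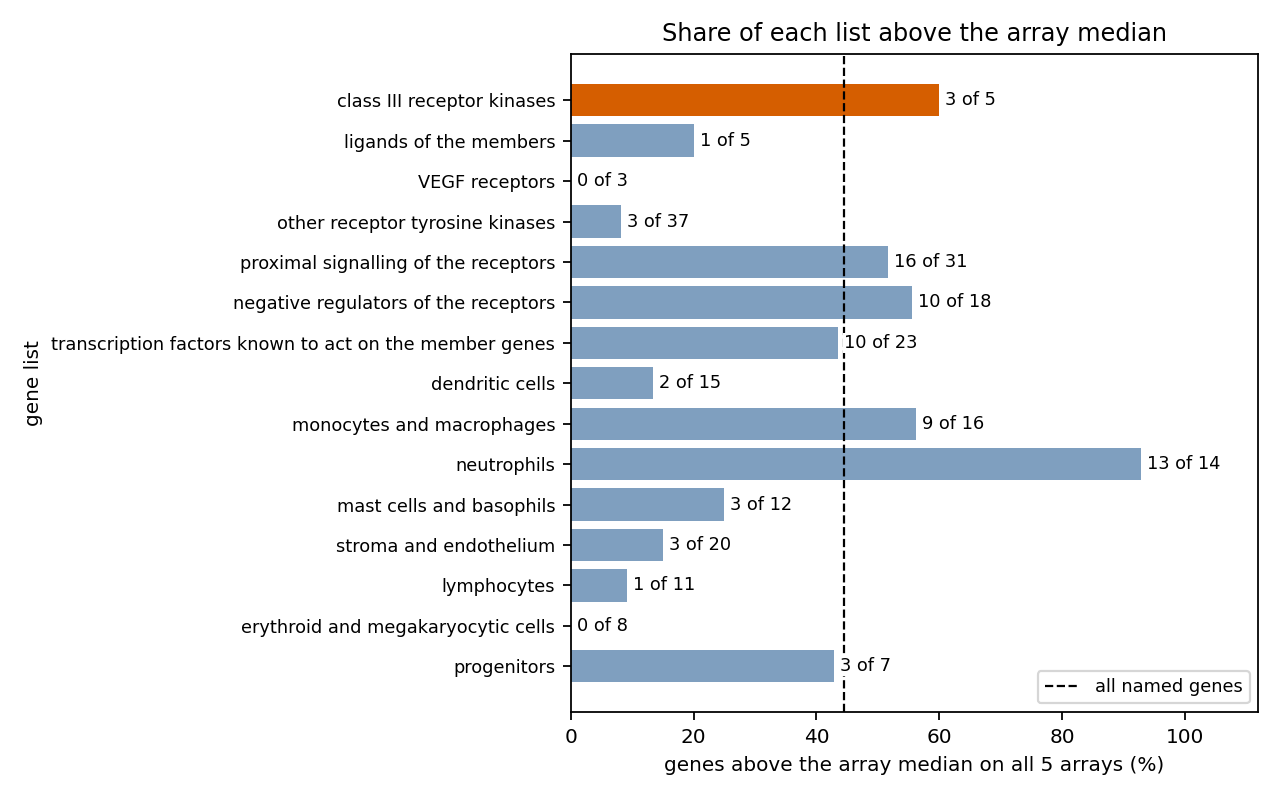
Percentage of measured genes of each list above the array median on all 5 arrays, with the counts beside the bars and the share of all named genes, 44.5%, as a dashed line. The receptor family (orange) has 3 of 5 genes there, the other receptor tyrosine kinases 3 of 37 and the neutrophil list 13 of 14.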

How the data were processed

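The submitters deposited 1 intensity value per probe set and array on a linear scale for 12488 probe sets. The software and scaling behind these values are not stated in the sources used here. Their 2% trimmed mean was 1000.6 in sample 1 and 200.1 in each of samples 2 to 5, so the latter already shared 1 level by that measure. The labels refer to a publication for RNA preparation and hybridization. Left out were 66 control probe sets. Arrays were scaled to 1 median, 103.4. Before log2, low values were set to a floor, the 25th percentile over all arrays (30.04); printed signals precede this floor. Genes were named through the platform annotation, with 10833 probe sets having 1 symbol and 396 several, which were not named; symbols were looked up in mouse RefSeq (GRCm38.p6), with 0 changes. Where a gene had several probe sets, lists used the brightest by mean log2 signal; all probe sets of the family were described.

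Variance was tested with limma 3.58.1 in R 4.3.3, which compares each probe set's variance over 5 samples with an F distribution fitted robustly to all variances along mean signal, with Benjamini-Hochberg adjustment over 5814 probe sets; the procedure was tested on simulated data. Likeness of profiles was the root mean square difference of log2 signals centred on each probe set's mean, since 5 samples are too few for a correlation. The number of arrays limits the precision. Alternatives were the values as deposited, another scaling, quantile normalization, other floors, limits and filters, a non-robust fit, and leaving out each sample.

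The 5 family members and 15 gene lists, of whose 259 genes 218 were measured, were chosen with earlier results of these data known. Named were all family probe sets, measured ligands, VEGF receptor genes, Itgam, in each list the first 4 genes measured, and the 5 nearest genes of each tested family probe set; other names were added after their values were seen. Motifs were chosen after the files were seen.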

Additional observations from a re-analysis of the deposited data

Results flagged for a closer look

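Among the genes named by the fixed rule, 4 had a sample that lay apart from the other 4 by Dixon's test at 95%. The test flags about 1 in 20 groups by chance and flagged 6.35% of the probe sets tested for variance. None was a probe set of the receptor family. The FLT3 ligand gene Flt3l had its lowest signal, 9.95, in sample 3, but all of its signals lay under the floor of 30.04. The PDGF chain gene Pdgfa was lowest in sample 5, at 15.4. The T cell gene Cd2 was highest in sample 1, at 33.3, and the erythropoietin receptor gene Epor highest in sample 5, at 84.6, both under the array median. Fscn1, named after its values were seen, also passed the limit, with its lowest signal, 215, in sample 4.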

How the results depend on the processing

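No paired analysis was possible because all samples form 1 group. Limma's variance test called 0 family probe sets under every alternative run; between 0 and 2 had an unadjusted p under 0.05, and that of Flt3 95295_s_at ran from 0.00843 to 0.315. The count above the median on all arrays was 4 of 9, against 36.7% of all probe sets, and between 4 and 5 with a sample left out, against 37.5% to 38.3%. At the 75th percentile of each array it was 1, Flt3 95295_s_at, against 17.4% of all probe sets. Over all lists 75 of 218 genes were above the median, or 34.4%, against 44.5% of all named genes. At that higher limit they were 43, or 19.7%, against 21.7%. The mean log2 signal of Pdgfra 160332_at relative to the array median was 0.082 and turned to -0.085, -0.068 and -0.018 without samples 3, 4 and 5, ranging from -0.085 to 0.38 over the samples left out. Under the lower floor, the 10th percentile, this measure was -2.40 for Pdgfra 161202_r_at and -2.07 for Pdgfrb, against -1.70 and -1.49. The median difference between family profiles was 0.69 and lay between 0.57 and 0.73 with a sample left out. A single factor per array cancels in that difference for signals above the floor. With no detection call, no limit between signal and background can be set here.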
